A study of Mus musculus with 9 samples.

Results

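The genes described here encode the enzymes that hydroxylate newly made collagen chains and the enzymes that crosslink the finished fibres. They were chosen as the probe sets whose annotation holds exactly 1 of 10 gene symbols: Lox, Loxl1, Loxl2, Loxl3, Loxl4, Plod1, Plod2, Plod3, P4ha1 and P4ha2. Of these 10 genes, 8 had such a probe set, with 1 probe set each, among the 22180 genes compared. Loxl2 and Plod3 were listed only on probe sets shared with a second gene (Gm21451 and Mir702), and are not analysed here.

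Collagen chains are modified inside the endoplasmic reticulum before they fold. Prolyl 4-hydroxylases, which are tetramers of an alpha subunit (P4ha1, P4ha2 or P4ha3) and protein disulfide isomerase (P4hb), make the hydroxyproline that keeps the triple helix stable at body temperature. Lysyl hydroxylases, encoded by the Plod genes, hydroxylate lysines that later carry sugars or enter crosslinks. Both enzyme families need iron, 2-oxoglutarate and ascorbate. Lysyl oxidases are secreted copper enzymes that turn lysines and hydroxylysines of collagen and elastin into aldehydes, from which crosslinks form. In bone, these steps give the matrix its tensile strength.

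The arrays measured total RNA of MSC2, a clonal mesenchymal stromal line grown from bone marrow of C57BL/6 mice aged 6 weeks. Undifferentiated MSC2 were kept in an alpha-MEM free of ascorbic acid, and the cells called 14 days and 28 days were grown to confluence and then induced for that time. The induction medium was DMEM to which 0.2 mM ascorbate phosphate, 0.1 µM dexamethasone, 1 mM sodium pyruvate and 10 mM beta-glycerophosphate were added. Serum was at 10% throughout, all groups come from the same clone, and each group has 3 arrays. Ascorbate therefore differs between the groups together with the basal medium, dexamethasone, confluence and time, and these cannot be told apart.

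Each gene's log2 signals had been centred on their own median across the 9 arrays. Such values can be compared between groups but hold no level of 1 gene against another. The median of each array was 0. The SD over genes ran from 0.439 to 0.447 on undifferentiated arrays, from 0.083 to 0.103 on 14-day arrays and from 0.153 to 0.161 on 28-day arrays. The centring adds to this gap, since 6 of the 9 arrays behind each median are of induced cells. The SD of the difference between 2 replicates was 0.130 to 0.135 in undifferentiated cells, 0.103 to 0.124 at 14 days and 0.131 to 0.146 at 28 days. Neither the log base nor the direction is written with the values, and higher was read as more RNA. Proliferation genes differed widely: 5 of 5 measured markers of dividing cells fell at 14 and at 28 days, with Mki67 at -1.97 and -2.92 (limma adjusted p = 1.84e-10 and 1.44e-11). The 9 measured osteoblast and osteocyte markers had 3 rises (Omd, Pth1r and Alpl) and 0 falls at each time. Sp7, a transcription factor of osteoblasts, was at -0.05 and 0.02 (adjusted p = 0.673 and 0.874). Of the stromal markers, 4 of 9 rose and 2 fell at each time. Macrophage markers rose in 3 of 9, endothelial markers in 4 of 7 at 14 days and 5 of 7 at 28 days, and adipocyte markers in 2 of 6, with 0 falls in each. Beside these marker counts, 18.2% of all genes rose and 17.5% fell at 14 days, and 20.4% rose and 19.5% fell at 28 days. Centred values give no summed level of a marker list. In bulk samples, fewer cells of a type and less RNA per cell cannot be told apart, and the part of these differences in the results was not tested.

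Against undifferentiated cells, Plod1, Loxl1 and Loxl3 were higher after induction, while Loxl4, P4ha1 and Plod2 were lower at both times and Lox and P4ha2 were lower at 28 days. Plod1 changed most, 2.23-fold at 14 days and 2.35-fold at 28 days, and Loxl1 rose 1.59-fold and 1.69-fold. These sizes were smaller after quantile normalization again, with log2 fold changes of 0.61 and 0.70 for Plod1 and of 0.34 and 0.44 for Loxl1. That step acted on centred values and made the spread of all arrays alike, which can also shrink differences from undifferentiated cells. It therefore cannot tell an effect of array scaling from the group difference itself. Loxl4 fell to 0.706 and 0.659 of its undifferentiated signal. The other changes were small, between 0.846 and 1.24 times the undifferentiated signal. Each gene had an adjusted p under 0.05 in limma's F test over the 3 groups, as did 39.2% of all genes.

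At 14 days, 6 of the 8 genes passed limma's test at an adjusted p under 0.05, with 3 up and 3 down. Over all genes 35.7% passed, 18.2% up and 17.5% down. The split was 3 up and 1 down after quantile normalization again, and 3 up and 2 down with arrays scaled to a common median absolute value. At 28 days, 8 of 8 passed, with 3 up and 5 down, against 39.9% of all genes, 20.4% up and 19.5% down. The arrays of both groups did not overlap for 7 of 8 genes at 14 days and 8 of 8 at 28 days, against 44.8% and 46.6% of all genes. The median of the log2 fold changes of the 8 genes was -0.06 at 14 days and -0.20 at 28 days, beside 0.0048 and 0.017 over all genes. Their median size of change, with the sign left out, was 0.27 and 0.25, beside 0.10 and 0.12. Only Plod1 among the 8 reached a 2-fold change, which 4.71% of all genes passed with a call at 14 days and 6.19% at 28 days. With either other scaling, none of the 8 reached 2-fold at either time. Both comparisons share the undifferentiated arrays, so they are not independent of each other.

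**Figure D1:**
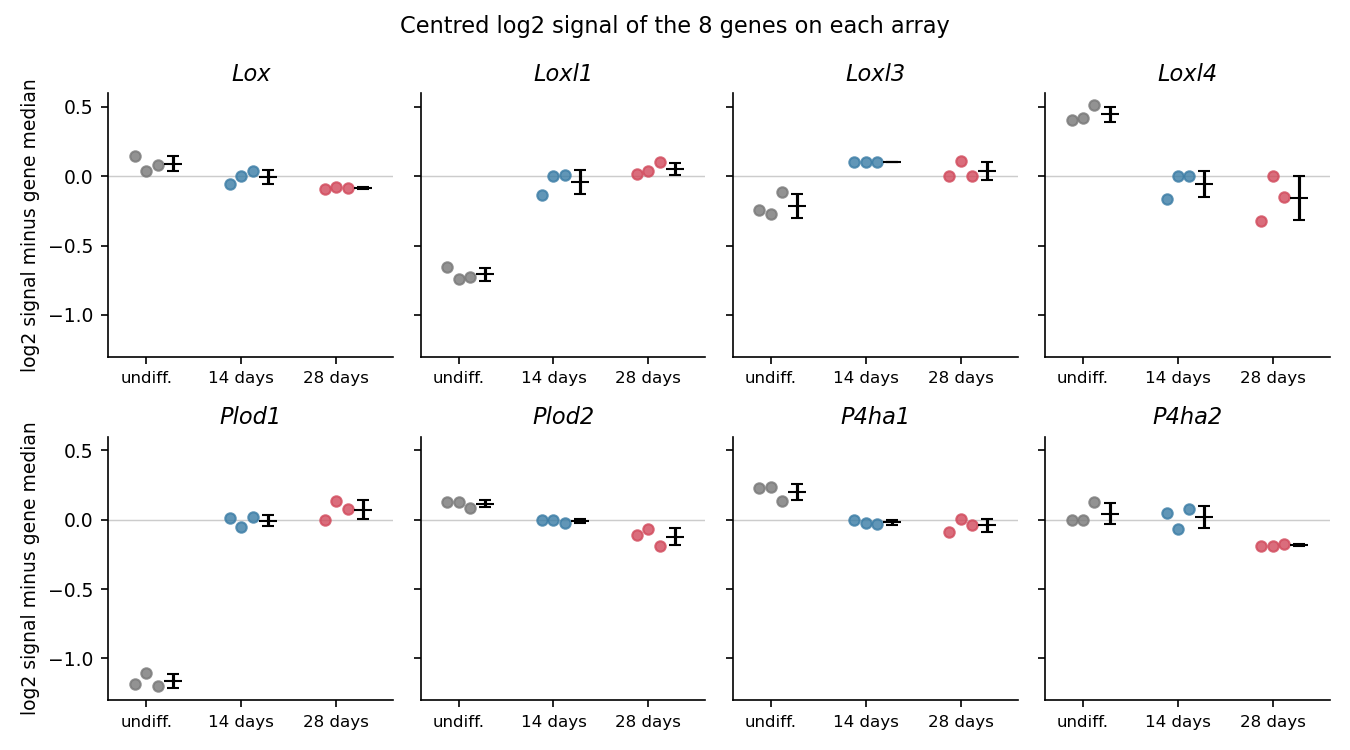
Centred log2 signal (y axis) of the 8 genes on each of the 9 arrays, by stage (x axis). Points are arrays, and the black mark with its bar is the mean ± SD of 3 arrays. Plod1 and Loxl1 sit lowest in undifferentiated cells, and Loxl4 sits highest there.

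The alpha subunit genes of prolyl 4-hydroxylase differed in timing: P4ha1 fell at both times and P4ha2 at 28 days. P4ha1 encodes the alpha subunit found in most cells. Its values were 0.23, 0.24 and 0.14 in undifferentiated cells, 0, -0.024 and -0.031 at 14 days and -0.087, 0.0046 and -0.041 at 28 days. Every induced array lay below every undifferentiated one, and the arrays of 14 and 28 days overlapped. P4ha1 was at -0.22 at 14 days (SE 0.04, limma adjusted p = 0.00234) and at -0.24 at 28 days (SE 0.04, adjusted p = 0.00109), which is 0.859 and 0.846 times the undifferentiated signal.

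P4ha2 encodes the alpha subunit that is prominent in cartilage and bone cells. Its values were 0.000156, 0 and 0.13 in undifferentiated cells, 0.050, -0.068 and 0.078 at 14 days and -0.19, -0.19 and -0.18 at 28 days. The 28-day arrays lay below all others, and those of 14 days overlapped the undifferentiated ones. The change at 14 days was -0.02 (95% interval -0.14 to 0.09, adjusted p = 0.801), with a sign that turned after quantile normalization again (0.0026). At 28 days it was -0.23 (SE 0.05, limma adjusted p = 0.00509).

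P4ha3, the third alpha subunit, was not among the 10 symbols and changed far more. Its values were 1.60, 1.51 and 1.57 in undifferentiated cells, -0.16, 0.064 and 0 at 14 days and -0.47, -0.22 and -0.18 at 28 days. Its log2 fold changes were -1.59 and -1.85 (limma adjusted p = 9.94e-08 and 2.36e-08). The shared beta subunit gene P4hb was at 0.14 at both times (adjusted p = 0.0216 and 0.0248).

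Promoter stretches are shown for the 4 of 8 genes that RefSeq's promoter table (GRCm38.p6) holds, since they include genes that fell (P4ha1, P4ha2, Loxl4) and the gene that rose most (Plod1), and since collagen hydroxylases are known targets of hypoxia-inducible factors. Each ends at the base before the annotated gene start. Capitals mark matches to the core of the hypoxia response element on either strand. The motif ACGTG was searched first, and its matches on both strands overlap where the sequence is a palindrome. The form that starts with guanine, GCGTG, was searched in the same way.
P4ha1, chr10:59323046-59323196, plus strand: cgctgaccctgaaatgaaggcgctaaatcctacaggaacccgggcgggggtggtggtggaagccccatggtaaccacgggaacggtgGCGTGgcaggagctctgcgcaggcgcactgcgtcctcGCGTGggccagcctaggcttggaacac
P4ha2, chr11:54100674-54100923, plus strand: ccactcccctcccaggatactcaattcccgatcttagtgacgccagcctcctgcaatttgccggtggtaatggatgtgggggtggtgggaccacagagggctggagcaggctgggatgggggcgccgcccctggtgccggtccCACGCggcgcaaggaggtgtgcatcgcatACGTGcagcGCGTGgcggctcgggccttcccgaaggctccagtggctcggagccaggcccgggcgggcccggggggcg
Loxl4, chr19:42612807-42613056, minus strand: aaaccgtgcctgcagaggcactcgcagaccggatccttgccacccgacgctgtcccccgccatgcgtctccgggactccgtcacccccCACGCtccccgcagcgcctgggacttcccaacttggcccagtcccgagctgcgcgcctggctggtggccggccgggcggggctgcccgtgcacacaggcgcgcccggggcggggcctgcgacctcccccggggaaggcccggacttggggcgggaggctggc
Plod1, chr4:147936777-147937026, minus strand: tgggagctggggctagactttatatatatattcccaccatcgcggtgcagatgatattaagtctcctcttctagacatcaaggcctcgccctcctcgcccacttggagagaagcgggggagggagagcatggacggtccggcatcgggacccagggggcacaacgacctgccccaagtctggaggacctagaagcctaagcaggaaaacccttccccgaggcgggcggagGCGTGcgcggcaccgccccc
The P4ha2 stretch holds 3 matches and the P4ha1 stretch 2, while those of Loxl4 and Plod1 hold 1 each. A match to either motif stands in 38.6% of all 32851 windows of 250 bases in the table (16.6% for ACGTG and 28.2% for GCGTG), so a match is common. The P4ha1 stretch has 151 bases, since RefSeq's gene table places the start of the gene inside its window of 250 bases, and that whole window holds 3 matches. Plod1 rose and the other 3 were lower at 28 days, and a match shows no binding.

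Lysyl hydroxylases went opposite ways. Plod1 encodes lysyl hydroxylase 1, which modifies lysines within the triple helix, and whose loss causes the kyphoscoliotic form of Ehlers-Danlos syndrome in people. Its values were -1.19, -1.10 and -1.20 in undifferentiated cells, 0.011, -0.054 and 0.019 at 14 days and 0, 0.14 and 0.076 at 28 days. The lowest induced array, at -0.054, lay well above the highest undifferentiated one, at -1.10. Plod1 rose by 1.15 at 14 days (SE 0.05, limma adjusted p = 2.49e-08) and by 1.23 at 28 days (SE 0.05, adjusted p = 1.09e-08). By size of change it ranked 786 among 22180 genes at 14 days and 896 at 28 days. Its rise kept its call but was 0.61 and 0.70 after quantile normalization again (adjusted p = 9.54e-05 and 2.36e-05), and 0.78 and 0.87 with arrays scaled to a common median absolute value.

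Plod2 encodes lysyl hydroxylase 2, which modifies lysines in the telopeptides at the chain ends and so sets the kind of crosslink that forms. Its values were 0.13, 0.13 and 0.087 in undifferentiated cells, 7.15e-05, 0 and -0.027 at 14 days and -0.11, -0.067 and -0.19 at 28 days. The 3 groups did not overlap, with undifferentiated cells highest and 28 days lowest. Plod2 was at -0.13 at 14 days (SE 0.04, limma adjusted p = 0.0447) and at -0.24 at 28 days (SE 0.04, adjusted p = 0.00107). The call at 14 days was lost under 13 of 18 alternatives, with adjusted p-values from 0.0254 to 1. Without 1 array it was 0.110, 0.111 and 0.0531 (undifferentiated replicates 1, 2 and 3), 0.0843, 0.0916 and 0.124 (14-day replicates 1, 2 and 3) and 0.0540 (28-day replicate 1).

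The lysyl oxidases split as well. Lox encodes the founding member of the family, which crosslinks both collagen and elastin. Its values were 0.15, 0.039 and 0.083 in undifferentiated cells, -0.060, 0 and 0.038 at 14 days and -0.090, -0.076 and -0.088 at 28 days. The 14-day arrays lay just below the undifferentiated ones (highest 0.038 at 14 days, lowest 0.039 in undifferentiated cells), and the 28-day arrays lay below both. Lox was at -0.10 at 14 days (95% interval -0.20 to 0.00066, limma adjusted p = 0.123) and at -0.17 at 28 days (SE 0.04, adjusted p = 0.00844). The call at 28 days failed once arrays were quantile normalized again (adjusted p = 0.0528), and over all 18 alternatives the adjusted p ran from 0.00843 to 1.

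Loxl1 encodes the lysyl oxidase that works with fibulin 5 on elastic fibres. Its values were -0.66, -0.74 and -0.73 in undifferentiated cells, -0.14, 0 and 0.012 at 14 days and 0.015, 0.035 and 0.10 at 28 days. All induced arrays lay above all undifferentiated ones. Loxl1 rose by 0.67 at 14 days (SE 0.05, limma adjusted p = 2.30e-06) and by 0.76 at 28 days (SE 0.05, adjusted p = 6.89e-07). After quantile normalization again it was 0.34 and 0.44 (adjusted p = 0.00667 and 0.00117), and with arrays scaled to a common median absolute value it was 0.42 at 14 days. The gene of its partner, Fbln5, fell, with log2 fold changes of -0.19 and -0.36 (adjusted p = 0.00276 and 2.63e-05).

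Loxl3 encodes a lysyl oxidase with scavenger receptor domains that mouse embryos need for a closed palate. Its values were -0.25, -0.28 and -0.11 in undifferentiated cells, 0.10, 0.10 and 0.11 at 14 days and 0, 0.11 and 0 at 28 days. Again all induced arrays lay above the undifferentiated ones. Loxl3 rose by 0.32 at 14 days (SE 0.05, limma adjusted p = 0.000674) and by 0.25 at 28 days (SE 0.05, adjusted p = 0.00284). Of its 28-day values, 2 are exactly 0.

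Loxl4 encodes another lysyl oxidase with scavenger receptor domains. Its values were 0.41, 0.42 and 0.51 in undifferentiated cells, -0.17, 0 and 0 at 14 days and -0.32, 0 and -0.15 at 28 days. It was the widest spread gene of the 8 at 28 days, with an SD of 0.16, yet all induced arrays lay below the undifferentiated ones. Loxl4 fell by 0.50 at 14 days (SE 0.08, limma adjusted p = 0.000496) and by 0.60 at 28 days (SE 0.08, adjusted p = 0.000116). On 3 arrays its value is exactly 0, the gene's own median. Quantile normalization again ended the call at 14 days (adjusted p = 0.0560), and the alternatives together spanned 0.000198 to 1.

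**Figure D2:**
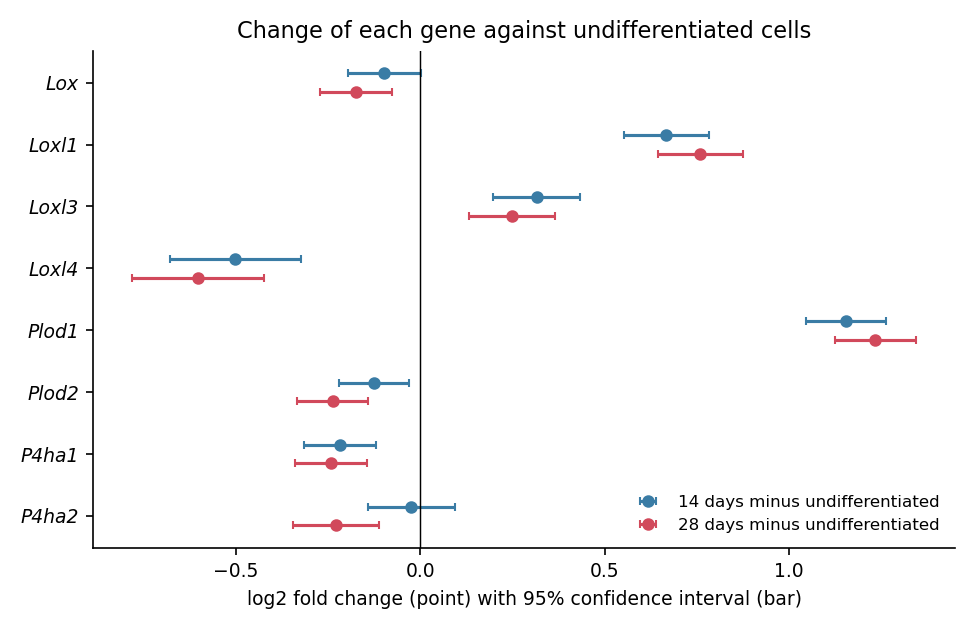
Log2 fold change (x axis) of each gene (y axis) at 14 days and at 28 days against undifferentiated cells. Points are limma estimates from 3 arrays a group, and bars are 95% confidence intervals. Plod1, Loxl1 and Loxl3 lie to the right of 0 at both times, and the intervals of Lox and P4ha2 at 14 days include 0.

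Between 28 and 14 days little separated the 8 genes. Only P4ha2 passed the test, with 0 genes up and 1 down, against 7.39% of all genes, 2.72% up and 4.67% down. P4ha2 averaged -0.19 ± 0.008 at 28 days and 0.02 ± 0.08 at 14 days (SD, n = 3), a difference of -0.20 (SE 0.05, limma adjusted p = 0.0446). The call was lost under 12 of 18 alternatives, with adjusted p-values from 0.0321 to 1. Without 1 array it was 0.0559 and 0.0577 (undifferentiated replicates 1 and 2), 0.149 and 0.150 (14-day replicates 1 and 3) and 0.103, 0.104 and 0.0945 (28-day replicates 1, 2 and 3). The arrays of 28 and 14 days did not overlap for 4 of 8 genes (Lox, Loxl1, Plod2 and P4ha2), against 24.4% of all genes. The 28-minus-14-day differences of the other 7 genes ran from -0.11 for Plod2 (adjusted p = 0.168) to 0.09 for Loxl1 (adjusted p = 0.369).

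Whether genes of 1 family changed unequally was tested on their differences within each array. A shift of that whole array does not move such a difference, but a change of the array's scale does. There were 8 such pairs, and 6 induced arrays were set against 3 undifferentiated ones in an exact two-sided permutation test with 84 arrangements. The sign of such a difference says nothing of which gene is more abundant, since each gene is centred on itself. In 7 of 8 pairs the induced and undifferentiated arrays did not overlap, each with an exact p = 0.0119, the smallest the test can give, and an adjusted p = 0.0136 over the 8 pairs. Over all 245965110 pairs of genes, the same arrays did not overlap in 48.3%, and over single genes in 38.3%. Pairs that share a gene are not independent of each other.

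The widest pair was Plod1 minus Plod2, with 0.10 ± 0.12 in induced cells (SD, n = 6, exact permutation) and -1.28 ± 0.04 in undifferentiated cells (SD, n = 3). It differed by 1.28 at 14 days and by 1.47 at 28 days. Loxl1 minus Loxl4 was 0.11 ± 0.14 in induced cells and -1.16 ± 0.09 in undifferentiated cells, and Lox minus Loxl1 was -0.05 ± 0.10 in induced cells and 0.80 ± 0.01 in undifferentiated cells. The elastic-fibre enzyme Loxl1 thus rose relative to Lox, with a difference of -0.85 in Lox minus Loxl1 between induced and undifferentiated cells. Loxl3 minus Loxl4 differed by 0.83, Loxl1 minus Loxl3 by 0.43 and Lox minus Loxl4 by 0.42, and Lox minus Loxl3 by -0.42. Loxl1 minus Loxl3 no longer passed with arrays quantile normalized again (adjusted p = 0.259) or after scaling each array to a common median absolute value (adjusted p = 0.0816). Quantile normalization again also made 3 other differences smaller, with 0.81 for Plod1 minus Plod2, 0.81 for Loxl1 minus Loxl4 and -0.50 for Lox minus Loxl1. P4ha1 minus P4ha2 differed by -0.10 (exact permutation p = 0.25), and the groups overlapped. With 1 time point alone, 3 arrays against 3 could not go below 0.10.

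**Figure D3:**
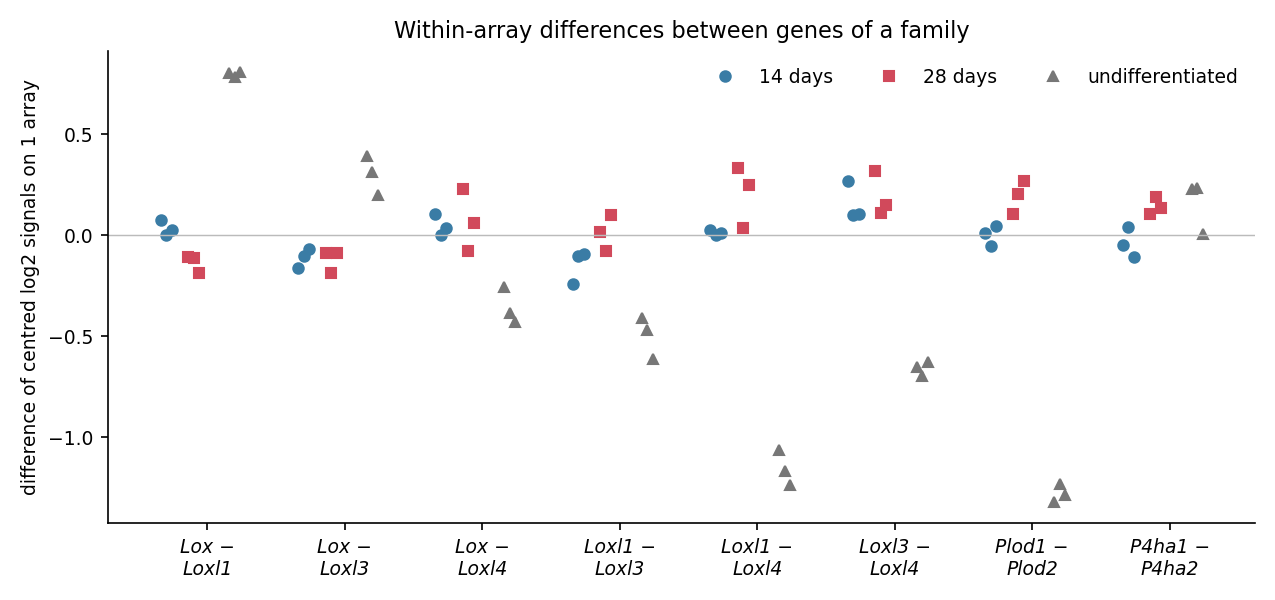
Difference between the centred log2 signals of 2 genes of a family on the same array (y axis) for the 8 pairs (x axis). Each symbol is an array: circles are 14 days, squares 28 days and triangles undifferentiated cells. In all pairs but P4ha1 minus P4ha2 the 6 induced arrays lie apart from the 3 undifferentiated ones.

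Of 16 other measured enzymes and chaperones of procollagen in the endoplasmic reticulum, 10 rose and 3 fell at 14 days, and 8 rose and 4 fell at 28 days. Their medians were 0.21 and 0.12. Over all genes 18.2% rose and 17.5% fell at 14 days, and 20.4% rose and 19.5% fell at 28 days. The same shares belong beside the lists that follow. The largest change of this list was the fall of P4ha3 described above, with -1.59 and -1.85. Tmem38b, a cation channel of that compartment which osteoblasts need for collagen modification, rose by 1.22 and 1.12 (limma adjusted p = 7.55e-08 and 1.04e-07). Creb3l1, a transcription factor for bone collagen in mice, fell, with log2 fold changes of -0.88 and -0.75. Serpinh1, the collagen chaperone HSP47, fell, with -0.36 and -0.35 (adjusted p = 4.87e-05 and 5.11e-05). Fkbp10 has no probe set of its own here and is not analysed.

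Of the genes that trim procollagen ends, 3 of 7 rose and 2 fell at 14 days, and 3 rose and 3 fell at 28 days. Bmp1, the protease that removes the carboxyl propeptide of procollagen and also activates pro-lysyl oxidase, rose by 0.96 at both times (limma adjusted p = 7.43e-08 and 5.96e-08). Pcolce2, a helper gene of Bmp1, was at -0.22 and -1.04, and it was the gene of this list with a call between 28 and 14 days (-0.82, adjusted p = 3.5e-05). The other falls were those of Pcolce at both times (-0.32 and -0.28) and of Adamts14 at 28 days (-0.20), named here after their values were seen. Tll1, a relative of Bmp1, rose by 0.50 and 0.40, and Adamts3, an amino-propeptide protease, rose by 0.35 and 0.42.

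The substrates moved in different directions. Of 12 collagen chains and elastin, 3 rose and 4 fell at 14 days, and 3 rose and 3 fell at 28 days, with a median of 0.05 at both. Eln, which encodes elastin, had values of -2.14, -1.97 and -1.998 in undifferentiated cells, 0.070, 0 and -0.11 at 14 days and 0.77, 0.81 and 0.86 at 28 days, with each stage above the one before. It rose by 2.02 and 2.85 (limma adjusted p = 2.15e-09 and 1.28e-10). The chains of collagen I differed: Col1a1 was at -0.26 and -0.39 (adjusted p = 0.000708 and 3.42e-05), and Col1a2 at 0.14 and 0.21 (adjusted p = 0.257 and 0.0848). Col5a1, a chain of the collagen that starts fibrils, was at -0.41 and -0.51. Col11a1, a minor fibrillar chain, rose by 0.50 at 14 days and was at -0.05 at 28 days (adjusted p = 0.000109 and 0.589), and the difference between 28 and 14 days was -0.55 (adjusted p = 0.000631).

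Of 8 matrix partners of the lysyl oxidases and other crosslinking enzymes, 3 rose and 3 fell at 14 days, and 4 rose and 2 fell at 28 days. Lum, a proteoglycan on collagen fibrils, rose by 3.03 and 4.65, Postn, a matrix protein that brings Bmp1 to its place, by 0.98 and 0.82, and the proteoglycan gene Dcn by 0.87 and 0.97. The falls were those of Fbln5 and Fn1, the fibronectin gene (-0.11 and -0.13), at both times and of Tgm2, a transglutaminase (-0.14), at 14 days, which are named here after their values were seen. Genes of copper supply rose in 5 of 7 at 14 days and 4 of 7 at 28 days, with 0 falls. After quantile normalization again these counts were 3 and 2. Atp7a, the pump that loads copper into lysyl oxidases, rose by 0.30 and 0.20 (limma adjusted p = 0.0019 and 0.0178). Slc31a2, a relative of the copper importer, rose by 1.14 and 1.16, and Ccs, the copper chaperone of superoxide dismutase, by 0.44 and 0.51.

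Genes of ascorbate uptake and recycling rose in 3 of 9 and fell in 3 at 14 days, and rose in 4 and fell in 4 at 28 days. Slc2a3, a sugar carrier that also takes up dehydroascorbate, rose by 1.34 and 1.59, Gsto2, a dehydroascorbate reductase, rose by 1.04 and 0.77, and Txnrd1, a thioredoxin reductase, fell, with -0.79 and -0.97. Other dioxygenases that use iron and 2-oxoglutarate rose in 10 of 24 and fell in 5 at 14 days, and rose in 9 and fell in 6 at 28 days. Egln3, an oxygen sensor, rose by 2.81 and 2.89, Tet2, which oxidises methylcytosine, by 0.65 and 0.71, and Phyh, which breaks down phytanic acid, by 0.64 and 0.70.

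Hypoxia-inducible genes rose in 9 of 17 and fell in 2 at 14 days, and rose in 9 and fell in 3 at 28 days, with medians of 0.25 and 0.27. Egln3 belongs to this list too, followed by Ndrg1 at 1.70 and 2.39 and the mitophagy gene Bnip3 at 1.67 and 1.77 (limma adjusted p = 4.22e-09 and 1.78e-09). Genes that fell included Ero1a (-0.81 and -0.75) and Slc2a1 (-0.20 and -0.14) at both times, and Ldha (-0.17) at 28 days. They are named here after their values were seen. P4ha1 and Plod2, known targets of the same factors, were also lower at both times, and P4ha2 at 28 days (-0.02 and -0.23). The Plod2 call at 14 days was lost under 13 of 18 alternatives. Over all genes 18.2% rose and 17.5% fell at 14 days, and 20.4% rose and 19.5% fell at 28 days, which are the shares to set beside these lists.

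**Figure D4:**
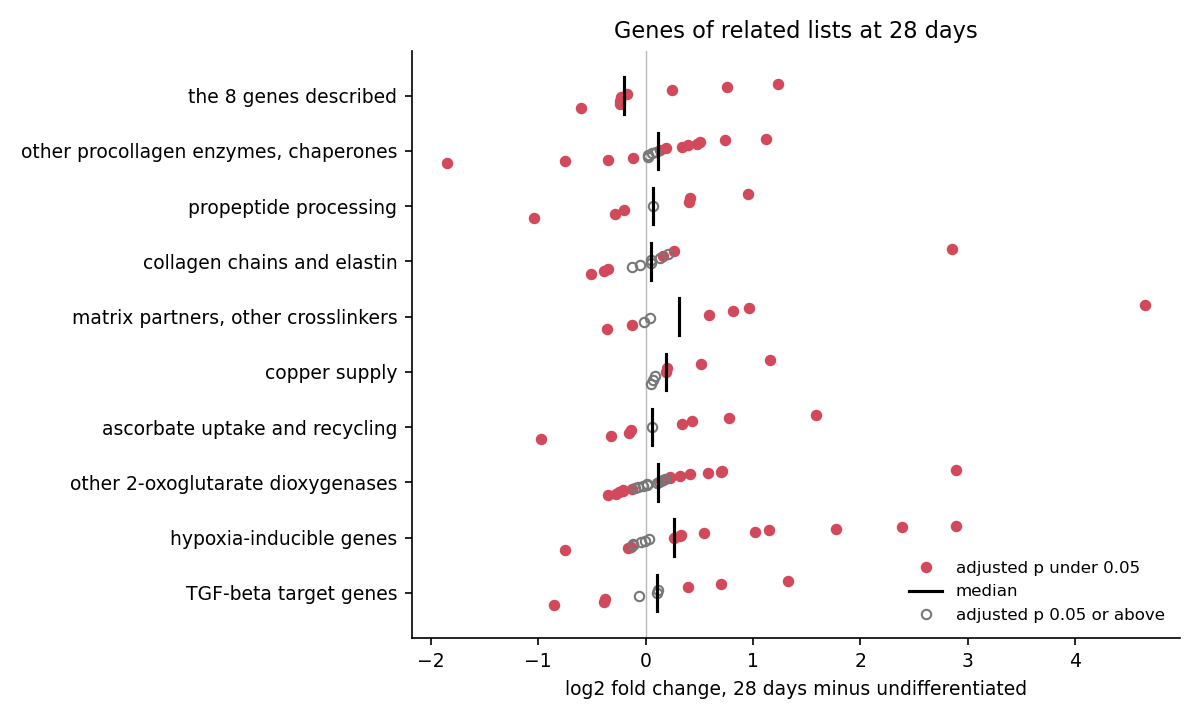
Log2 fold change at 28 days against undifferentiated cells (x axis) for the 8 genes and the genes of 9 related lists (y axis). Filled points have a limma adjusted p under 0.05, open points do not, and black bars are medians. The 8 genes have a median of -0.20 and Plod1 at 1.23 as the highest.

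By the root mean square difference over the 9 arrays, the genes with the pattern most like that of Plod1 were Cyb561a3 (0.047), whose product is a cytochrome that uses ascorbate, and Fgfr1 (0.049), a receptor of fibroblast growth factors. Nearest to Loxl1 were Abca3 (0.044) and Ptgis (0.050), the prostacyclin synthase gene, and nearest to Loxl4 were Isoc1 (0.055) and Slc25a24 (0.064). Wsb2 (0.028) and Purb (0.029) lay nearest to Lox, and Psmd8 (0.040) and Atxn3 (0.047) to Loxl3. Fubp3 (0.023) and Eif5b (0.029) lay nearest to Plod2, Larp4 (0.025) and Brpf1 (0.027) to P4ha1, and Zfp46 (0.032) and Bhlhb9 (0.044) to P4ha2. These distances are descriptions over 9 arrays in 3 groups.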

How the data were processed

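Total RNA with a mean integrity number of 9.9, per the labels, was measured on 9 arrays. The deposited log2 values were made by RMA, per the submitters' processing notes; which software and annotation it ran on is not stated there. As RMA gives log2 values, base 2 was assumed. All 33794 probe sets have a median of 0 over the 9 arrays, and how they were centred is not stated. The supplied annotation gives 23521 probe sets 1 gene, 1814 several and 8459 none. Those with 1 gene were used, averaged per gene (22180 genes).

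Groups came from sample titles, and the series text calls the replicates independent. Nothing names separate animals, so p-values measure the spread between these cultures. Differences were fitted in limma 3.58.1 (R 4.3.3) over all genes and 9 arrays, with 6 residual and 3.81 prior degrees of freedom, and adjusted by Benjamini-Hochberg over all genes. The fit and the permutation test were tested on simulated data. Pairs planned with Loxl2 and Plod3 could not be formed, which left 8. For arrays, their number limits the precision.

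The genes, the 15 other lists and the tests were chosen with earlier results of these data known. All 8 genes are described. From each other list up to 3 called genes with the largest change are named, plus Col1a1, Col1a2, P4hb, Serpinh1, Mki67 and Sp7, and the 2 nearest genes by pattern. Not every gene that this allows is printed. Alternatives were other normalizations, probe set rules, filters, tests, thresholds, the replicate number as a block, and leaving out each array. Same-numbered samples did not deviate together (correlations from -0.14 to 0.068).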

Additional observations from a re-analysis of the deposited data

Results flagged for a closer look

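P4ha2 differed between the effects at the 2 induction times: its change against undifferentiated cells was -0.23 at 28 days and -0.02 at 14 days, a difference of -0.20 on the log2 scale (limma adjusted p = 0.0446, lower in 3 of 3 arrays of 28 days than in any array of 14 days). This call was lost under 12 of 18 alternatives. The arrays of 28 and 14 days also did not overlap for 24.4% of all genes.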

How the results depend on the processing

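Over 18 alternatives for each of the 8 genes in 3 comparisons, 391 of 432 values kept their direction and their side of the threshold, 37 lost a call and 4 changed sign. The sign changes were those of P4ha2 at 14 days after quantile normalization again (0.0026), without undifferentiated replicate 3 (0.02) and without 14-day replicate 2 (0.02), and of P4ha1 between 28 and 14 days without 28-day replicate 1 (0.00043). Leaving out 1 array, these 2 differences ran from -0.053 to 0.0202 and from -0.045 to 0.00043. None of these passed the test in either form. In the test against a 1.5-fold change, 1 gene was called at 14 days (Plod1), 2 at 28 days (Plod1 and Loxl1) and 0 between 28 and 14 days. The single call between 28 and 14 days also became 0 after scaling arrays to a common median absolute value, without the genes of smallest range (lowest 0.25 of all), in a fit of the groups compared only and at an adjusted p under 0.01. Leaving out 1 array gave 0 to 1 calls there. With the replicate number as a block, members called were 5 at 14 days, 8 at 28 days and 1 between them, with Plod2 at 14 days at an adjusted p of 0.0501. All genes called numbered 7846, 8726 and 1390, against 7920, 8845 and 1639 without it. The cause of these losses was not tested. Both other scalings acted on centred values, where making arrays alike in spread can also shrink differences from undifferentiated cells. Each array's values were centred per gene, so signal over background is not known here.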

Other observations

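Among 9 measured target genes of transforming growth factor beta, 3 rose and 3 fell at each time. Of all genes, 18.2% rose and 17.5% fell at 14 days, and 20.4% rose and 19.5% fell at 28 days. Tgfbi, which encodes a matrix protein that binds collagen, rose by 1.02 at 14 days and 1.33 at 28 days, and Tgfb1, the gene of the growth factor itself, by 0.59 and 0.70 (limma adjusted p = 3.92e-06 and 8.54e-07). Smad7, an inhibitor of the pathway, fell, with log2 fold changes of -0.83 and -0.85.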
